A study of Caenorhabditis elegans with 10 samples.

Results

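Embryos of Caenorhabditis elegans that met high salt with a different history were compared across all genes. In the preconditioned group, N2 (wild-type) parents were grown on 300 mM NaCl and their embryos were put on 500 mM NaCl. In the lin-45 group, parents and embryos carried lin-45(n2018), an allele of the RAF kinase gene, the parents were grown on 50 mM NaCl and the embryos were put on 500 mM NaCl. All 4 libraries of these groups, of 10 in the series, entered the comparison, and 14802 of the 45461 genes in the table passed a minimum level of 1 CPM (counts scaled to library size) in 2 libraries and were tested. The other 3 groups are N2 embryos on 500 mM, lin-45(n2018) embryos on 50 mM and N2 embryos on 50 mM, all of parents grown on 50 mM NaCl. Each group holds 2 libraries of polyadenylated RNA from whole embryos taken 3 hours after egg preparation. The mutant is represented by a single allele, and genotype and parental salt change together between the preconditioned and the lin-45 group, so that their parts in a difference cannot be told apart. The design sets parental salt exposure against the RAF mutation in embryos under the same salt load.

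RAF, encoded by lin-45, passes the signal of RAS (LET-60) to the kinases MEK-2 and MPK-1 (ERK), and in the worm this pathway is known for vulval, excretory duct and germline development. Under hypertonic stress C. elegans accumulates glycerol, which glycerol 3-phosphate dehydrogenases (GPDH-1 and GPDH-2) and a phosphatase step make from a glycolytic intermediate. The insulin-like receptor DAF-2, acting through AKT kinases, holds the FOXO factor DAF-16 out of the nucleus, and DAF-16 drives many stress and metabolic genes.

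The preconditioned libraries held 34585489 and 33832939 counts and the lin-45 libraries 32066595 and 29606281, within 22138098 to 34585489 over the series. Replicates varied around their group mean with a common coefficient of variation of 13.1%. As a root mean square over genes, the log2 distance was 0.687 between the preconditioned and lin-45 groups, 0.591 between preconditioned and N2 embryos on 500 mM, and 0.48 between lin-45 and N2 embryos on 500 mM. Within a group it was 0.611 for the preconditioned pair, 0.291 for the lin-45 pair and 0.351 for the N2 pair on 500 mM, so the preconditioned replicates were the least alike of these 3 pairs.

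RNA of lin-45 itself was measured in mutant and N2 embryos alike. It stood at 81.5 and 94.8 CPM in preconditioned embryos, against 96.7 and 104.1 CPM in lin-45 embryos and 88.6 and 83.0 CPM in N2 embryos on 500 mM. On 50 mM it stood at 117.6 and 119.1 CPM in lin-45 and 92.97 and 94.97 CPM in N2 embryos, so that all 4 lin-45 libraries of the series lay above all 6 N2 libraries. The preconditioned minus lin-45 log2 difference was -0.19 ± 0.088 (SE) with a 95% interval of -0.39 to 0.01 (adjusted p = 0.127, edgeR). The lin-45 minus N2 difference on 50 mM passed at 0.33 (adjusted p = 0.01233).

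A pair of neighbouring genes on chromosome V followed the strain in every library. irld-35, a gene of the insulin/EGF-receptor L domain family, held 794 counts in the preconditioned libraries and 0 in the lin-45 libraries. Set against a floor of 3 counts over the group, irld-35 was 226-fold higher. The exact 95% lower bound of the irld-35 ratio was 183.5 (counting error only). The neighbour of irld-35, F56A4.3, held 776 counts against 2, a ratio of 331.6 (exact 95% interval 91.49 to 2743, counting error only). On ce10, F56A4.3 lies at 2453412 to 2456146 and irld-35 at 2456174 to 2458285, on opposite strands and 27 bases apart. Both were at or near 0 in all 4 lin-45 libraries of the series, where they held 1.77 expected counts in sum, and both were present in all 6 N2 libraries. No genotype data were analysed here, so a lower transcript level and a sequence missing or changed in the mutant strain cannot be told apart, and the folds describe counts only. The nearest detected genes on either side had counts in the mutant. str-267, a chemoreceptor gene on the left, was higher in preconditioned embryos by log2 1.31 (adjusted p = 0.005825, edgeR). F56A4.10 on the right held 0 and 2 expected counts in the preconditioned libraries against 10 and 7 in the lin-45 libraries.

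The transcriptomes of preconditioned and lin-45 embryos differed widely. A total of 5568 genes, 37.6% of those tested, passed an adjusted p of 0.05 in edgeR's quasi-likelihood test, of which 2667 (18%) were higher and 2901 (19.6%) lower in preconditioned than in lin-45 embryos. Differences of 2-fold or more were found for 1385 of the called genes (9.36% of those tested), and these leaned to the lower side, with 346 higher and 1039 lower. The replicates did not overlap for 5112 genes in the higher direction (34.5%) and 5025 in the lower direction (33.9%), which includes all called genes. A total of 10045 genes (67.9%) had a 95% interval wholly within 2-fold, 7063 of them not called. For 2171 genes the data neither passed the test nor bounded the difference within 2-fold. Without replicate 1 of the lin-45 group 2541 genes were called, 996 higher and 1545 lower, and without its replicate 2 the higher calls were 1430. An exact permutation test with 2 libraries a side has a smallest p of 0.333, and each call rests on the spread shared across genes and groups.

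Set beside the same fit against N2 embryos on 500 mM, preconditioned embryos differed from N2 at 3292 genes, 1514 higher (10.2%) and 1778 lower (12%). lin-45 embryos differed from N2 at 961 genes, 717 higher (4.84%) and 244 lower (1.65%). These comparisons share libraries with the main comparison and with each other, and are given below as each one's own value.

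The glycerol pathway was measured at 5 genes, of which 2 were lower in preconditioned embryos and 0 higher, with a list median of -0.41 against 0.0109 over all tested genes. gpdh-2 stood at 251 and 272 CPM in preconditioned embryos, against 363 and 332 CPM in lin-45 embryos and 318 and 352 CPM in N2 embryos on 500 mM. Both preconditioned libraries lay below both lin-45 libraries, and the difference of -0.41 ± 0.11 passed (adjusted p = 0.0151, edgeR). The call ended without replicate 1 of the lin-45 group (-0.35, adjusted p = 0.115). gpdh-1 stood at 73.4 and 91.3 CPM in preconditioned embryos, against 109 and 107 CPM in lin-45 embryos and 187 and 180 CPM in N2 embryos on 500 mM. Its libraries did not overlap either, but the difference of -0.39 ± 0.15 missed the threshold (adjusted p = 0.066, edgeR), while it passed with DESeq2 (adjusted p = 0.04). Against N2 on 500 mM, gpdh-1 was lower in both groups, at -1.16 in preconditioned embryos (adjusted p = 0.0013) and at -0.77 in lin-45 embryos (adjusted p = 0.018).

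The phosphatases that finish glycerol synthesis are listed in the table by sequence name. F44E7.2, pgph-2 in RefSeq, stood at 111 and 158 CPM in preconditioned embryos against 206 and 188 CPM in lin-45 embryos, a difference of -0.55 ± 0.17 (adjusted p = 0.0354, edgeR). This call ended without replicate 1 of either group. C53A3.2 (pgph-3) gave -0.58 ± 0.21 and K09H11.7 (pgph-1) 1.87 ± 0.83, and neither passed (adjusted p = 0.0543 and 0.109). The list held 0 lower members without replicate 1 of the lin-45 group, 1 without replicate 1 of the preconditioned group and 4 without its replicate 2.

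The desiccation-linked genes lea-1, dur-1 and djr-1.2 were far lower in preconditioned than in lin-45 embryos. lea-1, a gene of the LEA family, whose proteins accumulate in dried plant seeds and anhydrobiotic animals, stood at 1165 and 2055 CPM in preconditioned embryos, against 9718 and 7575 CPM in lin-45 embryos and 9732 and 8254 CPM in N2 embryos on 500 mM. The difference was -2.42 ± 0.24 (adjusted p = 0.000265, edgeR), a level 5.37-fold lower in preconditioned embryos. dur-1 stood at 260 and 438 CPM in preconditioned embryos against 1250 and 1006 CPM in lin-45 embryos (-1.69 ± 0.23). djr-1.2, a glyoxalase of the DJ-1 family, stood at 10.8 and 27.2 CPM in preconditioned embryos against 164 and 109 CPM in lin-45 embryos (-2.85 ± 0.40), and at -3.65 without replicate 2 of the preconditioned group. All 3 genes had preconditioned libraries well apart from the lin-45 libraries, and their lin-45 levels did not pass a difference from N2 on 500 mM. In N2 embryos on 50 mM lea-1 stood at 46.0 and 47.4 CPM, dur-1 at 219 and 235 CPM and djr-1.2 at 0.397 and 0.281 CPM. The preconditioned libraries lay above these N2 levels for all 3 genes. The myo-inositol transporter gene hmit-1.1 was lower, at -0.40 ± 0.11 (adjusted p = 0.0179), a call that ended without either lin-45 library (adjusted p = 0.058 and 0.051). hmit-1.2, hmit-1.3 and djr-1.1 gave -0.31, -0.27 and -0.16 and did not pass, so the list of 7 had 4 lower and 0 higher members. lea-1 overlaps other gene models on its own strand, with which it may share reads.

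Of 11 water channel (aquaporin) genes 4 were higher (36.4%) and 2 lower (18.2%), beside 18% and 19.6% of all genes. The lower share was thus near that of all genes. aqp-4 stood at 46.2 and 52.8 CPM in preconditioned embryos against 19.5 and 26.2 CPM in lin-45 embryos (1.12 ± 0.14, adjusted p = 0.000571, edgeR). aqp-2 stood at 2327 and 2664 CPM in preconditioned embryos against 1973 and 1848 CPM in lin-45 embryos (0.39 ± 0.093), a call that ended without either lin-45 library (adjusted p = 0.0524 and 0.0611), and aqp-11 was higher by 0.43. aqp-6 gave -0.90 ± 0.14. The other two called members, named after their values were seen, were aqp-12 (0.75) and aqp-1 (-0.40). Without either lin-45 library 2 aquaporins were called higher and 1 lower.

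**Figure D1:**
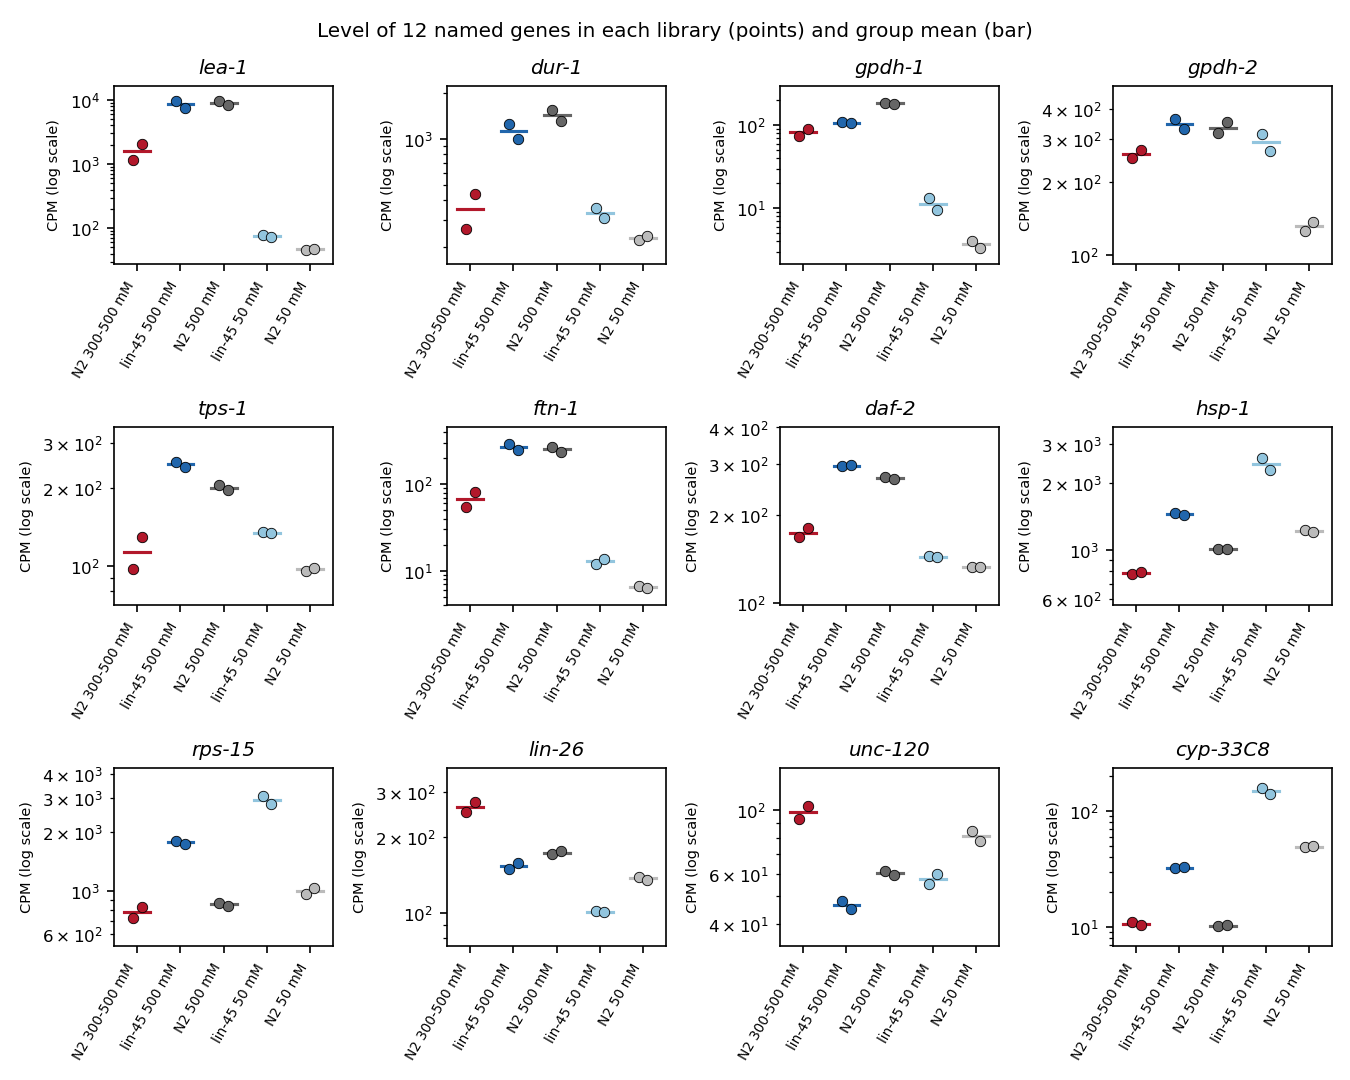
Level of 12 genes in CPM on a log scale in each of the 10 libraries (points) with the group mean (bar), preconditioned embryos at the left. The levels of lea-1, dur-1, ftn-1, tps-1 and daf-2 in preconditioned embryos lie below those of lin-45 and N2 embryos on 500 mM, rps-15 and cyp-33C8 lie apart in the lin-45 groups, and lin-26 and unc-120 are highest in preconditioned embryos.

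Trehalose, a disaccharide that protects against desiccation, is made by the synthases TPS-1 and TPS-2 and cleaved by trehalases. Of 8 genes 7 were lower in preconditioned embryos and 0 higher, with a median of -0.60. tps-1 stood at 97.6 and 130 CPM in preconditioned embryos, against 253 and 242 CPM in lin-45 embryos and 205 and 198 CPM in N2 embryos on 500 mM (-1.12 ± 0.12, adjusted p = 0.000326, edgeR). tps-2 stood at 106 and 114 CPM against 222 and 234 CPM (-1.05 ± 0.076). In N2 embryos on 50 mM tps-1 stood at 96.2 and 98.2 CPM and tps-2 at 119.2 and 115 CPM. The trehalase genes tre-4 and tre-2 were lower, at -1.09 and -0.55, so that genes of synthesis and of breakdown fell together.

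Central carbon metabolism shared this direction. Of 19 glycolysis genes 15 were lower and 0 higher (median -0.69). The pyruvate kinase gene pyk-2 stood at 50.5 and 56.05 CPM in preconditioned embryos against 115 and 109 CPM in lin-45 embryos (-1.07 ± 0.083, adjusted p = 0.000104, edgeR), and the phosphoglycerate kinase gene pgk-1 at 124 and 134 CPM against 259 and 248 CPM (-0.98 ± 0.079). gpd-2, a glyceraldehyde 3-phosphate dehydrogenase gene, and F57B10.3, the phosphoglycerate mutase gene ipgm-1 in RefSeq, were lower, at -0.91 and -0.74. Of 8 gluconeogenesis and glyoxylate cycle genes 6 were lower and 0 higher (median -0.46). C05E4.9, the glyoxylate cycle gene icl-1, stood at 1318 and 1383 CPM in preconditioned embryos, against 2892 and 2957 CPM in lin-45 embryos and 3265 and 3266 CPM in N2 embryos on 500 mM (-1.11 ± 0.072, adjusted p = 4.81e-05). R11A5.4, the phosphoenolpyruvate carboxykinase gene pck-2, was lower, at -0.99 ± 0.070, and mdh-2 and cts-1, a malate dehydrogenase and a citrate synthase gene, by -0.58 and -0.35. The cts-1 call ended without replicate 1 of the lin-45 group (adjusted p = 0.051).

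Lipid genes were lower more often than higher, at 10 and 5 of 20 members of the fatty acid list. The delta-9 desaturase genes fat-6 and fat-5 gave -1.89 ± 0.19 and -1.72 ± 0.21, and fat-2, a delta-12 desaturase gene, gave -0.96. fat-6 stood at 80.7 and 117 CPM in preconditioned embryos against 394 and 336 CPM in lin-45 embryos. sbp-1, the SREBP factor that drives desaturase genes, was lower, at -1.17 ± 0.10 (adjusted p = 0.000152, edgeR). The 5 higher members were the elongase genes elo-3 (0.47), elo-4 (0.98) and elo-9 (0.89), the acyl-CoA synthetase gene acs-1 (0.38) and mdt-15 (0.48), a Mediator subunit gene of lipid metabolism.

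Insulin signalling genes were mostly lower in preconditioned embryos, at 6 of 10 members of the receptor pathway against 1 higher (median -0.54). The receptor gene daf-2 stood at 168 and 180 CPM in preconditioned embryos, against 296 and 297 CPM in lin-45 embryos and 271 and 266 CPM in N2 embryos on 500 mM. The preconditioned pair lay below all 4 of these libraries, and the difference from lin-45 was -0.77 ± 0.067 (adjusted p = 0.000159, edgeR). The kinase genes akt-1 and akt-2 gave -1.09 ± 0.12 and -0.81 ± 0.11, and ist-1, an insulin receptor substrate gene, gave -0.81 ± 0.13. The higher member was sgk-1, a kinase gene related to the AKT genes, at 0.30, and it did not pass when any 1 of the 4 libraries was left out. Those fits had 5 to 7 lower members.

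Among 23 insulin-like peptide genes 10 were lower and 0 higher (median -0.61), and 6 were lower without replicate 1 of the lin-45 group. ins-27 stood at 2.22 and 2.52 CPM in preconditioned embryos, against 9.10 and 8.92 CPM in lin-45 embryos and 3.09 and 4.68 CPM in N2 embryos on 500 mM. ins-3 and ins-29 were lower, at -1.08 and -2.17. ins-13 gave -3.75, but its model lies over acdh-2 on the same strand, so their reads cannot be told apart.

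Genes downstream of DAF-16 were lower in preconditioned embryos at 11 of 17 members, with 0 higher and a median of -0.87. Many of these members are also counted in other lists. They are hsp-12.3, hsp-12.6 and sip-1 (small heat shock), sod-3, sod-5, ctl-1 and ctl-2 (antioxidant), C05E4.9 (glyoxylate cycle), and lys-7 and lys-8 (lysozymes). The counts of these lists are therefore not separate. ftn-1, a ferritin gene, stood at 54.7 and 81.1 CPM in preconditioned embryos, against 289 and 246 CPM in lin-45 embryos and 271 and 235 CPM in N2 embryos on 500 mM (-1.98 ± 0.18, adjusted p = 0.000179, edgeR). The small heat shock genes hsp-12.3 and hsp-12.6 stood 5.45-fold and 7.74-fold lower in preconditioned embryos, hsp-12.3 at 27.4 and 30.5 CPM against 165 and 150 CPM. Against N2 on 500 mM, 11 of the 17 members were lower in preconditioned embryos and 0 lower in lin-45 embryos, where 1 was higher. Of 22 antioxidant genes 12 were lower and 0 higher (median -0.34). They include the superoxide dismutase gene sod-1 (-0.94 ± 0.097) and the glutathione peroxidase genes gpx-6, gpx-3 and gpx-5 (-1.53, -1.16 and -1.0).

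Cytosolic chaperones followed. Of 20 large chaperone genes 15 were lower and 1 higher (median -0.51). The higher member was hsp-60 (0.80), the chaperonin of mitochondria. hsp-1, the constitutive HSP70 gene, stood at 774 and 792 CPM in preconditioned embryos, against 1462 and 1433 CPM in lin-45 embryos and 1010 and 1006 CPM in N2 embryos on 500 mM. It was lower, at -0.89 ± 0.076 (adjusted p = 0.000149, edgeR), and against N2 it was lower in preconditioned embryos (-0.36) and higher in lin-45 embryos (0.52). daf-21 (HSP90), hsp-110 and cct-4, a chaperonin subunit gene, were lower, at -0.76, -0.85 and -0.60. Of 13 small heat shock genes 3 were lower (23.1%) and 1 higher (7.69%), beside 19.6% and 18% of all genes. This list leaves out the small heat shock gene F08H9.4, which was lower, at -3.27. F08H9.4 stood at 47.6 and 106 CPM in preconditioned embryos against 866 and 614 CPM in lin-45 embryos. hsp-17 stood at 14.1 and 19.5 CPM in preconditioned embryos, against 51.7 and 48.8 CPM in lin-45 embryos and 14.1 and 13.4 CPM in N2 embryos on 500 mM, and hsp-12.1 was higher by 0.94 ± 0.19. Without replicate 1 of the preconditioned group 9 small heat shock genes were lower. Of 20 genes of the endoplasmic reticulum stress list 5 were higher and 2 lower (median 0.12), a higher share of 25% beside 18% of all genes. pdi-6, a protein disulphide isomerase gene, stood at 489 and 459 CPM in preconditioned embryos against 304 and 320 CPM in lin-45 embryos (0.60 ± 0.082), while pek-1, the PERK kinase gene, and xbp-1, a transcription factor gene of the unfolded protein response, were lower, at -0.61 and -0.31. The chaperone genes dnj-7 and dnj-20, the oxidase gene ero-1 and the sensor gene atf-6 were higher by 0.42, 0.39, 0.25 and 0.24. When replicate 1 of the lin-45 group was left out, 2 members of this list were higher and 1 lower.

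**Figure D2:**
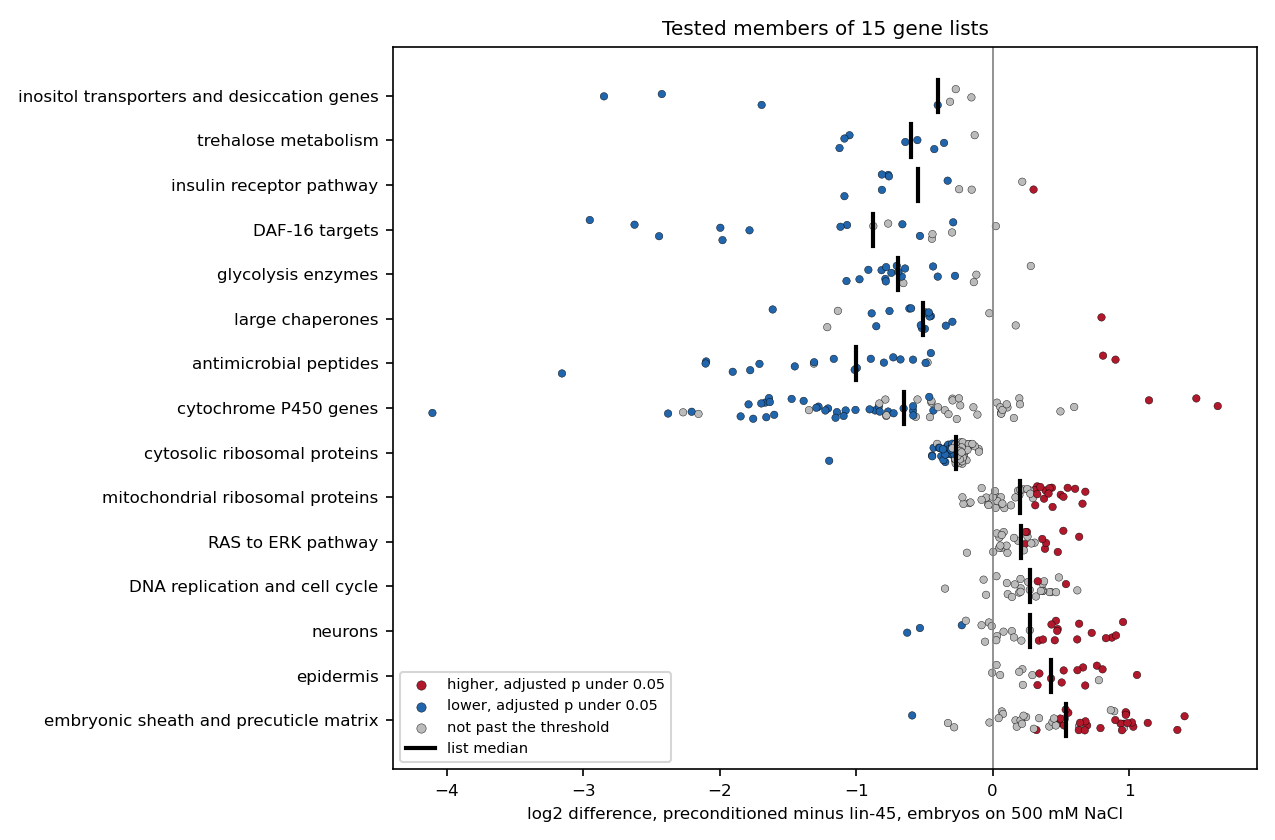
Log2 difference, preconditioned minus lin-45 on 500 mM NaCl, of each tested member (points) of 15 gene lists, with the list median (bar). Red and blue points passed an adjusted p of 0.05. Points of glycolysis, chaperone, DAF-16 target and antimicrobial peptide genes lie mostly left of 0, and those of epidermis and precuticle matrix mostly right.

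Genes of the RAS to ERK pathway itself were higher more often than lower, by small amounts. All 26 genes were tested, and 9 were higher (34.6%) and 0 lower, beside 18% and 19.6% of all genes. The median was 0.21, against 0.0109 over all tested genes, and 25 of the 26 had an interval within 2-fold. let-60, the RAS gene, stood at 216 and 228 CPM in preconditioned embryos, against 153 and 157 CPM in lin-45 embryos and 168 and 169 CPM in N2 embryos on 500 mM (0.52 ± 0.076, adjusted p = 0.00127, edgeR). sos-1, its exchange factor, and ark-1, a kinase that restrains the EGF receptor, were higher by 0.38 ± 0.084 and 0.48 ± 0.098.

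Downstream nuclear genes eor-2 and lin-25 gave 0.39 and 0.36, and lin-31, a winged-helix target of ERK, gave 0.64 ± 0.17. ptp-2, sli-1 and soc-2 passed at 0.25, 0.24 and 0.24. The kinases after RAF did not pass: mek-2 gave 0.05 with an interval of -0.14 to 0.24 and mpk-1 gave 0.03 with an interval of -0.19 to 0.25. The ligand gene lin-3 gave 0.26 (-0.01 to 0.52), and the receptor gene let-23 gave 0.19 (-0.03 to 0.40). The scaffold and adaptor genes ksr-1, ksr-2, cnk-1, sem-5 and soc-1 gave 0.05, 0.00, 0.10, 0.07 and 0.23, none of which passed. The RAS GTPase activators gap-1 and gap-3 gave 0.31 and 0.28, the phosphatase gene lip-1 gave 0.08, and lin-1, eor-1, sur-2 and egl-17 gave 0.06, 0.11, 0.16 and 0.07, likewise short of the threshold. Fits without replicate 1 or replicate 2 of the lin-45 group had 4 and 3 higher members. The calls for sos-1, lin-31, ptp-2, sli-1 and soc-2 ended without either lin-45 library, and that for lin-25 without replicate 2. Without replicate 2 of the preconditioned group 8 were higher and 1, the lin-45 transcript, lower.

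Detoxification genes were lower in preconditioned embryos more often than higher. Of 73 cytochrome P450 genes 35 were lower and 3 higher (median -0.65). cyp-33C8 stood at 10.9 and 10.4 CPM in preconditioned embryos, against 32 and 32.6 CPM in lin-45 embryos and 10.1 and 10.3 CPM in N2 embryos on 500 mM (-1.60 ± 0.087, adjusted p = 3.75e-05, edgeR). Preconditioned and N2 libraries of this gene lay together and lin-45 libraries apart from both, also on 50 mM (158 and 140 CPM in lin-45 against 49.0 and 49.8 CPM in N2). cyp-33C9, cyp-43A1 and cyp-32A1 gave -1.67, -1.47 and -1.23. The 3 higher members were cyp-13A3, cyp-13A12 and cyp-29A4 (1.49, 1.15 and 1.65). UDP-glucuronosyl transferase genes were lower at 24 (37.5%) and higher at 8 (12.5%) of 64, beside 19.6% and 18% of all genes. Among them ugt-18 gave -1.96 ± 0.12 and ugt-57 1.2 ± 0.12. Glutathione S-transferase genes were lower at 17 and higher at 4 of 47, with gst-15 at -1.83 ± 0.20 and gst-3 at -1.43 ± 0.15. Leaving out replicate 1 of the lin-45 group left 1, 3 and 1 higher calls in these 3 families.

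Innate defence genes were divided by family. Of 22 antimicrobial peptide genes 18 were lower and 2 higher (median -1.0), and 8 were lower without replicate 1 of the lin-45 group. nlp-32 stood at 4.78 and 8.23 CPM in preconditioned embryos against 68.2 and 47.6 CPM in lin-45 embryos (-3.16 ± 0.30, adjusted p = 0.000208, edgeR), and cnc-4 at 24.7 and 31.2 CPM against 96.5 and 95 CPM (-1.78 ± 0.13). nlp-31 and nlp-34 gave -1.16 and -1.45, and the higher members were nlp-26 (0.81) and cnc-3 (0.90). Of 13 lysozyme genes 3 were higher (23.1%) and 5 lower (38.5%), beside 18% and 19.6% of all genes. lys-4 was higher by 1.32, and ilys-2, which stayed under 3 CPM in every library, by 2.50. The invertebrate-type gene ilys-3 held 85 counts in preconditioned against 1 in lin-45 libraries, a ratio of 72.65 (95% interval 12.69 to 2903, counting error only). lys-2, lys-3 and lys-8 gave -0.88, -1.25 and -0.66. C-type lectin genes were higher at 19 and lower at 23 of 108, shares of 17.6% and 21.3% near those of all genes. The lectin genes clec-13 and clec-15 have the same count in every library and cannot be told apart.

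Among the 10 genes with the highest differences, those with the largest folds after irld-35 and F56A4.3 were R05D8.11, nhr-12 and clec-209. nhr-12, a nuclear hormone receptor gene, stood at 76.4 and 72.4 CPM in preconditioned embryos, against 8.94 and 8.55 CPM in lin-45 embryos and 84.7 and 75.6 CPM in N2 embryos on 500 mM (3.09 ± 0.096, adjusted p = 3.98e-06, edgeR). Its preconditioned and N2 libraries lay together, with lin-45 alone at the lower level. R05D8.11 was instead high in preconditioned embryos alone among those on 500 mM, at 15.4 and 16 CPM, against 1.08 and 1.42 CPM in lin-45 embryos and 1.86 and 2.74 CPM in N2 embryos. On 50 mM R05D8.11 stood at 17.27 and 14.25 CPM in N2 and 0.693 and 1.92 CPM in lin-45 embryos. Its preconditioned level was thus near that of N2 embryos on 50 mM, and it was low in lin-45 embryos at both salt levels. The C-type lectin gene clec-209 gave 2.81 ± 0.24, F29B9.1 2.07, F17B5.6 1.95, T07G12.3 1.68 and T07D3.4 1.68. The T07G12.3 call ended without replicate 1 of the lin-45 group (adjusted p = 0.067). Y48G8AL.12 gave 1.86 and overlaps Y48G8AL.1 on the opposite strand. Of these 10 genes 5 lie on chromosome V.

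The 10 lowest differences likewise included strain-bound and salt-bound genes. srw-85, a chemoreceptor gene, stood at 0.855 and 0.996 CPM in preconditioned embryos, against 50.3 and 47.8 CPM in lin-45 embryos and 2.26 and 1.1 CPM in N2 embryos on 500 mM (-5.73 ± 0.25, adjusted p = 1.54e-05, edgeR). On 50 mM it stood at 52.4 and 53.8 CPM in lin-45 and 1.5 and 1.31 CPM in N2, so the mutant was high at both salt levels. Y47H10A.5 had the same order, with -4.21 ± 0.26. acdh-2, an acyl-CoA dehydrogenase gene, stood at 4.86 and 1.87 CPM in preconditioned embryos, against 42.7 and 52.6 CPM in lin-45 embryos and 60.1 and 101 CPM in N2 embryos on 500 mM, and under 0.2 CPM in all libraries on 50 mM. The acyl-CoA synthetase gene acs-2 (-3.35), the small heat shock gene F08H9.4 (-3.27), the lysozyme gene ilys-6 (-3.78), lact-6 (-4.12) and F21F3.3 (-3.26) were also low in preconditioned embryos and high in both other groups on 500 mM. Leaving out replicate 1 of the preconditioned group moved acdh-2 to -4.71 and acs-2 to -4.28, and leaving out its replicate 2 moved ilys-6 to -4.69, F08H9.4 to -3.94 and F21F3.3 to -4.16. F44G3.10 gave -4.02. MTCE.33, a mitochondrial ribosomal RNA gene, gave the lowest value of -7.17 ± 1.54, but its lin-45 replicates stood at 129 and 12.9 CPM, the value was -4.71 without the first and -8.07 without the second, and the libraries were selected for polyadenylated RNA.

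Cytosolic ribosomal protein genes were lower by small amounts. Of 78 genes 29 were lower and 0 higher, with a median of -0.27 and 77 intervals within 2-fold. The count depended on single libraries, with 2 lower without replicate 1 of the lin-45 group, 17 without replicate 1 of the preconditioned group and 64 without its replicate 2. rps-15 stood out in the list, at 724 and 828 CPM in preconditioned embryos, against 1811 and 1750 CPM in lin-45 embryos and 868 and 835 CPM in N2 embryos on 500 mM (-1.2 ± 0.091, adjusted p = 8.72e-05, edgeR). On 50 mM rps-15 stood at 3066 and 2803 CPM in lin-45 and 960 and 1041 CPM in N2. rpl-10, rpl-11.1 and rla-2 gave -0.44, -0.43 and -0.44.

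Ribosomal proteins of mitochondria moved the opposite way. Of 45 genes 17 were higher and 0 lower (median 0.20), and all 45 intervals lay within 2-fold. mrps-9 stood at 45.02 and 47.6 CPM in preconditioned embryos, against 29.4 and 28.4 CPM in lin-45 embryos and 30.8 and 30.5 CPM in N2 embryos on 500 mM (0.68 ± 0.073, adjusted p = 0.000334, edgeR). mrpl-39, mrpl-24 and mrpl-12 were higher by 0.66, 0.61 and 0.55. Leaving out replicate 1 or replicate 2 of the lin-45 group gave 6 and 9 higher members, and leaving out replicate 1 of the preconditioned group gave 12 higher and 2 lower.

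Epidermal regulators were among the genes higher in preconditioned embryos. Of 19 epidermal markers 11 were higher and 0 lower (median 0.43), against 18% higher over all genes. lin-26, the zinc finger factor of epidermal fate, stood at 250 and 274 CPM in preconditioned embryos, against 150 and 158 CPM in lin-45 embryos and 171 and 175 CPM in N2 embryos on 500 mM (0.77 ± 0.073, adjusted p = 0.000221, edgeR). The GATA factor genes elt-3 and elt-1 and the nuclear receptor gene nhr-25 were higher by 0.81, 0.68 and 0.51. In bulk RNA of whole embryos, more cells of a type and more RNA per cell cannot be told apart. The summed level of the 19 markers was 7830 and 8511 CPM in preconditioned embryos, against 6901 and 7014 CPM in lin-45 embryos and 7783 and 7645 CPM in N2 embryos on 500 mM. In the fit without replicate 1 of the lin-45 group 7 markers were higher.

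Of 49 genes of the embryonic sheath and precuticle, the apical matrix laid down before the cuticle, 25 were higher and 1 lower (median 0.54). The lipocalin-like gene lpr-1 stood at 32.9 and 40.1 CPM in preconditioned embryos, against 16.9 and 18.8 CPM in lin-45 embryos and 32.2 and 29.6 CPM in N2 embryos on 500 mM. dyf-7, needed for dendrite anchoring, was higher by 1.14 ± 0.20, and the cuticlin-like genes cutl-9 and cutl-22 by 0.90 and 0.98. The lower member was lpr-2 (-0.59). In fits without replicate 1 or replicate 2 of the lin-45 group, 6 and 10 members were higher. Hedgehog-related genes were higher at 12 (27.3%) and lower at 7 (15.9%) of 44, beside 18% and 19.6% of all genes. Among them grd-1 and hog-1 gave 1.14 and 0.97, and grl-21 and grd-3 gave -0.75 and -0.92. The higher calls of the hedgehog-related list did not hold without replicate 1 of the lin-45 group. The collagen genes lon-3, dpy-10 and dpy-7, which shape the body, were higher by 1.39, 0.89 and 0.62, calls that all ended without replicate 1 of the lin-45 group, while 12 other tested body-shape collagens did not pass. The numbered collagens were lower at 31 and higher at 5 of 103, and lower at 13 without replicate 1 of the lin-45 group. col-108 stood at 15.02 and 27.6 CPM in preconditioned embryos against 135 and 113 CPM in lin-45 embryos (-2.54 ± 0.27), and col-99, a transmembrane collagen gene, was higher by 0.52.

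Markers of other tissues were mixed. In muscle 7 of 21 markers were higher (33.3%) and 6 lower (28.6%), beside 18% and 19.6% of all genes. The muscle fate factor gene unc-120 stood at 92.8 and 103 CPM in preconditioned embryos, against 48.3 and 45.4 CPM in lin-45 embryos and 61.4 and 59.2 CPM in N2 embryos on 500 mM (1.06 ± 0.087, adjusted p = 0.00012, edgeR), and unc-112 (kindlin) was higher by 0.63. The myosin gene unc-54 stood at 2375 and 2941 CPM in preconditioned embryos against 5149 and 4772 CPM in lin-45 embryos (-0.90 ± 0.11), and the twitchin gene unc-22 was lower, at -0.62. In the pharynx 4 of 17 markers were higher (23.5%) and 6 lower (35.3%). The factor genes tbx-2, ceh-22 and hlh-6 gave 0.61, 0.73 and 0.70. The pharyngeal myosin gene myo-2 gave -0.83, phat-4 -0.59 and F47B7.7 -1.06. In the intestine 5 of 17 markers were higher (29.4%) and 7 lower (41.2%), with a median of -0.215 and a range of -0.765 to 0.996. Naming by smallest p picked only higher members. They were the GATA factor gene elt-2 (0.61), the peptide transporter gene pept-1 (1.00), ifd-2 (0.92) and inx-16 (0.41). The 7 lower members are not named here. Of 29 neuronal markers 14 were higher and 3 lower (median 0.27), among them the POU factor gene unc-86 (0.88), unc-3 (0.96), the proneural gene cnd-1 (0.83) and the tubulin gene tbb-4 (0.91). The lower ones were egl-3 and egl-21, which process neuropeptides, and the synaptobrevin gene snb-1 (-0.63, -0.53 and -0.23). Without replicate 1 of the lin-45 group the muscle counts were 4 higher and 4 lower, the intestinal counts 4 and 2 and the neuronal counts 9 and 0. Without replicate 2 of the preconditioned group they were 7 and 11, 5 and 9, and 12 and 5.

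Markers of the germ line and of adults were also measured. Of 20 germ granule and primordial germ cell genes 0 were higher and 1, the Piwi gene prg-1, was lower (-0.60 ± 0.086), with 0 higher and 9 lower without replicate 1 of the preconditioned group and 4 higher and 1 lower without its replicate 2. Sperm and yolk genes of adults summed to 6.60 and 8.76 CPM in preconditioned embryos, against 11.15 and 10.4 CPM in lin-45 embryos, with msp-40 at under 1 CPM in all 4 libraries.

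Smaller lists are given by their counts, beside 18% higher and 19.6% lower over all genes. Of 28 histone genes, most of whose replication-dependent transcripts lack a polyadenylated tail, 2 were higher and 7 lower, and without replicate 1 of the lin-45 group 0 were higher and 1 lower. The linker histone gene his-24 stood at 576 and 339 CPM in preconditioned embryos against 196 and 246 CPM in lin-45 embryos (1.05), so its preconditioned libraries lay apart from each other and above the lin-45 pair. Of 30 astacin metalloprotease genes 5 were higher (16.7%) and 4 lower (13.3%), no more than the shares of all genes. The lower ones were nas-4, nas-9, nas-11 and nas-31 (-0.76, -0.75, -0.70 and -0.56). Leaving out replicate 1 of the lin-45 group gave 0 astacin calls in either direction. Of 12 cell death and engulfment genes 4 were lower and 1 higher, among them the engulfment genes ced-7, ced-6 and ced-5 (-0.29, -0.27 and -0.22) and the Rac gene ced-10 (0.30), and 0 passed without replicate 1 of the lin-45 group.

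The preconditioned replicates differed most in genes of dividing and young embryos. Of 27 DNA replication and cell cycle genes 16 were at least 2-fold higher in replicate 1 than in replicate 2, as were 16 of 28 maternal regulators and 9 of 15 early zygotic genes, against 436 of all 14802 genes, while 0 members of these 3 lists and 18 of all genes were at least 2-fold higher in replicate 2. The summed level of the cell cycle list was 2015 and 840.4 CPM in preconditioned embryos, against 1058 and 1228 CPM in lin-45 embryos and 1131 and 1224 CPM in N2 embryos on 500 mM. The maternal list summed to 507.4 and 283.0 CPM in preconditioned embryos, against 326.5 and 378.9 CPM in lin-45 embryos. The preconditioned libraries thus lay on either side of the lin-45 pair for both lists.

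With both preconditioned libraries 2 of 27 cell cycle genes were higher and 0 lower, both of them inhibitors of cyclin-dependent kinases, cki-1 (0.54 ± 0.11, adjusted p = 0.00591, edgeR) and cki-2 (0.33 ± 0.089). The cki-1 call ended without replicate 2 of the lin-45 group (adjusted p = 0.054), and the cki-2 call without either lin-45 library or replicate 1 of the preconditioned group. Without preconditioned replicate 1 the count of the list was 1 higher and 16 lower, and without preconditioned replicate 2 it was 23 higher and 0 lower. For the maternal list 1, mex-3, was higher and 0 lower, with 0 and 14 without replicate 1 and 14 and 0 without replicate 2. For the early zygotic list 2, sdz-38 and pal-1, were higher and 0 lower, with 1 and 8 without replicate 1 and 8 and 0 without replicate 2. The direction of these 3 lists is therefore set by which preconditioned library is used, and the part of embryo age in the other results was not tested. Calls for lea-1, tps-1, daf-2, hsp-1, lin-26 and unc-120, chosen as examples, held without either preconditioned library. Those for F44E7.2 and cki-2 ended without replicate 1 of the preconditioned group. Such fits were not a test of embryo age, which may also differ in the library left in.

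**Figure D3:**
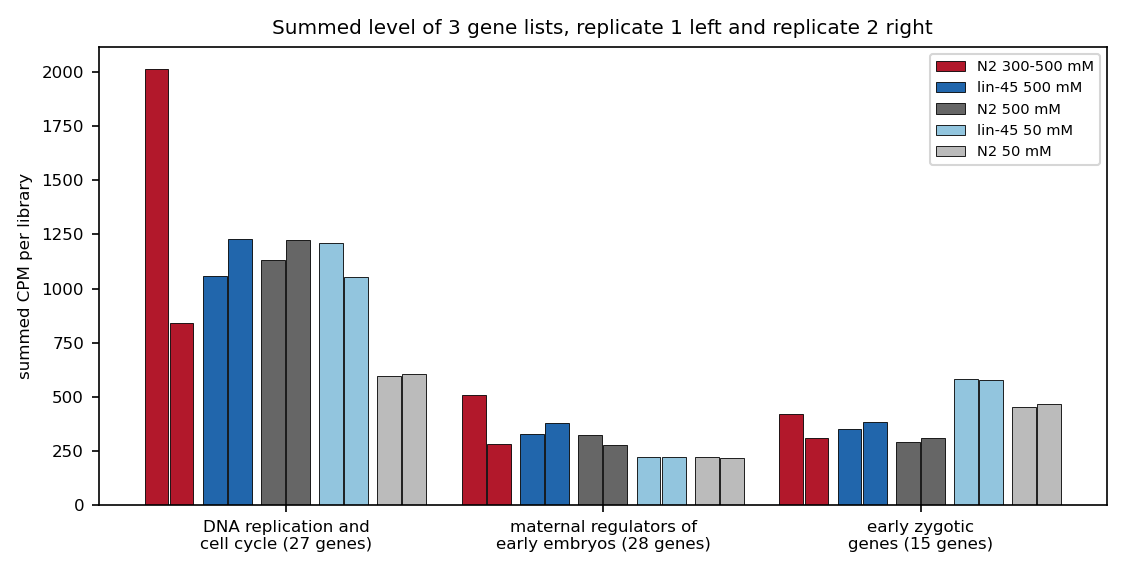
Summed level in CPM of 3 gene lists in each library, replicate 1 left and replicate 2 right in each pair of bars, preconditioned embryos first. Replicate 1 of the preconditioned group stands above the lin-45 pair and replicate 2 below it in all 3 lists.

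A larger share of X-linked than of autosomal genes was higher in preconditioned embryos. Of 2168 tested genes on X 28.6% were higher and 16.6% lower in preconditioned embryos, with a median of 0.14, whereas on the autosomes 16.2% of 12621 genes were higher and 20.1% lower. Single autosomes ranged from 15.4% to 17.2% higher and from 17% to 23.7% lower, with chromosome V at the low end of the first range and the high end of the second. Leaving out each of the 4 libraries gave 13.3% to 29.5% higher on X and 5.61% to 18.5% on the autosomes, and X was above in each case. Against N2 on 500 mM, preconditioned embryos had 17.2% of X genes higher and 9.04% of autosomal genes, and lin-45 embryos had 4.24% and 4.95%. On 50 mM, lin-45 embryos had 31.7% of X genes lower than in N2, and 19.2% of autosomal genes. Genes on a chromosome are not independent, and these shares were not tested.

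**Figure D4:**
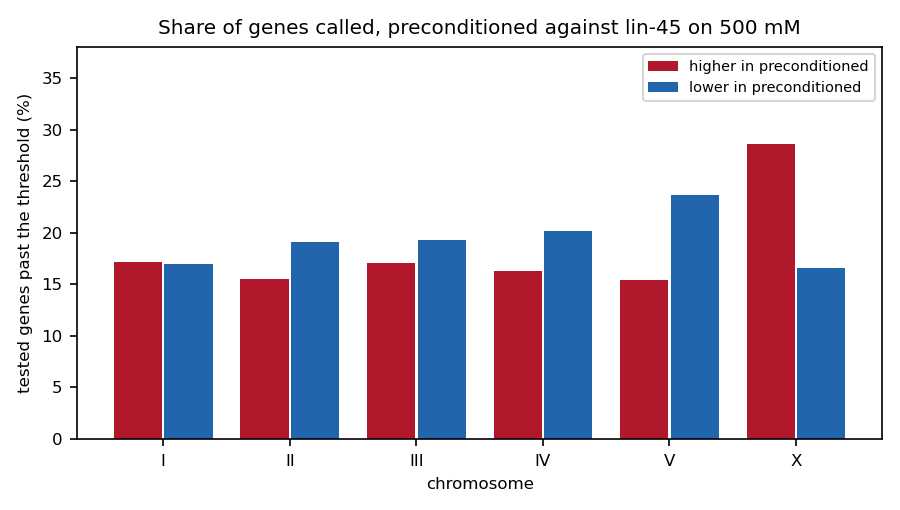
Percent of tested genes called higher (red) and lower (blue) in preconditioned than in lin-45 embryos on 500 mM NaCl, by chromosome. The higher share is 28.6% on X and 15.4% to 17.2% on the autosomes.

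The other libraries of the series allow each gene to be placed by its salt response in N2 (500 against 50 mM) and by the strain difference on low salt (lin-45 against N2 on 50 mM), neither of which uses the 4 libraries compared here. These sets were chosen after the values were seen, with a 2-fold change and an adjusted p of 0.05 in the same model. Of 1896 genes that rose on salt in N2, 41.8% were lower in preconditioned than in lin-45 embryos and 3.74% higher (median -0.45), against 19.6% and 18% of all genes. They supplied 27.3% of all lower calls. Of 2102 genes that fell on salt in N2, 19.8% were lower and 14.8% higher (median -0.07). Without replicate 1 of the preconditioned group 1137 genes that rose on salt were lower and 57 higher, and without its replicate 2 the counts were 787 and 233. The 71 higher calls of this set were 28 and 24 without replicate 1 and replicate 2 of the lin-45 group.

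Genes that differed between the strains on low salt mostly kept the same strain direction among those called here. Of 1159 genes higher in lin-45 than in N2 on 50 mM, 45.6% were lower in preconditioned than in lin-45 embryos and 2.50% higher (median -0.57). Of 1400 genes lower in lin-45 on 50 mM, 47.8% were higher and 2.14% lower in preconditioned embryos (median 0.63). The 669 higher calls of this set were 211 without replicate 1 and 348 without replicate 2 of the lin-45 group, while the 29 higher calls of the set higher in lin-45 were 12 and 15 in those fits and 109 without replicate 2 of the preconditioned group. Among the 9226 genes in none of these 4 sets, 18.4% were higher and 15.7% lower. Across the 14802 genes, which are not independent, the difference correlated at r = -0.49 with the strain difference on 50 mM and at r = -0.205 with the salt response of N2.

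**Figure D5:**
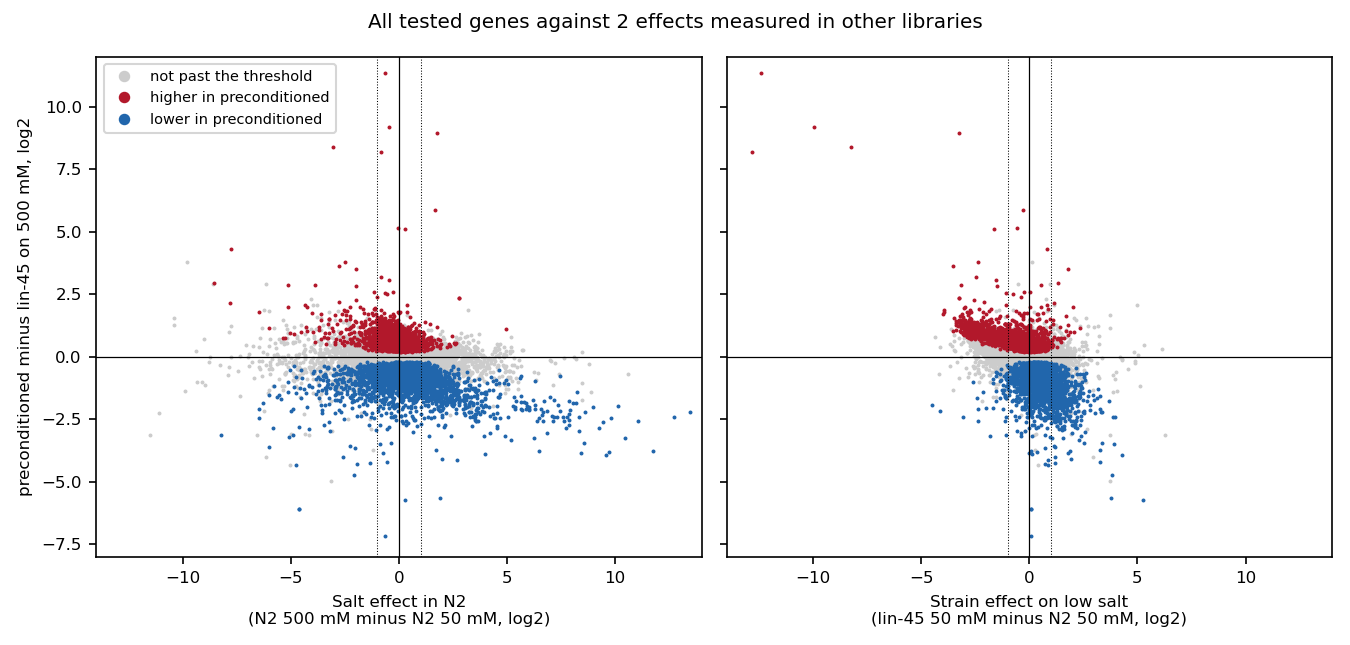
Log2 difference, preconditioned minus lin-45 on 500 mM NaCl, of every tested gene against its salt effect in N2 (left) and against the strain effect on 50 mM NaCl (right), both measured in other libraries. Red and blue points passed an adjusted p of 0.05 and dotted lines mark 2-fold. Blue points extend far to the right in the left panel, and points run from upper left to lower right in the right panel.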

How the data were processed

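RNA-seq of 10 embryo libraries was analysed from the table the authors deposited, which gives RSEM expected counts per gene and library, not normalized. The authors also deposited FPKM and log2 values, where log2 is log2(FPKM + 1) by the values, and, per the file headers, a mean and a variance score over libraries. These columns were checked and not used. Tools listed in the submitters' processing notes are RSEM 1.2.15 and BWA 0.6.1, besides DESeq 1.10.1 and bedtools 2.25.0, with build ce10. Their roles, the annotation version and strandedness were likewise not given in the sources used here.

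Expected counts were rounded and genes with at least 1 CPM in at least 2 libraries were kept. edgeR 4.0.16 (R 4.3.3) with TMM factors (0.9227 to 1.083) fitted 1 quasi-likelihood model with 5 group means to all 10 libraries (5 residual degrees of freedom). Contrasts were tested two-sided with Benjamini-Hochberg adjustment over 14802 genes at 0.05. CPM are TMM-scaled, per library, replicate 1 first. Levels are compared between groups and not between genes. Log2 differences are preconditioned minus lin-45 unless stated, with SE. Higher and lower mean past the threshold. In simulated counts for this comparison, 75 genes were changed 1.5-fold, 75 genes 2-fold and 50 genes 4-fold. All changed genes had 5 CPM or more, and each gene had the same spread in all groups. Of these changes 33.3%, 86.7% and 100% were recovered, with 17 false among 157 calls. In the data 37.6% of genes were called and the preconditioned replicates were less alike, so these rates need not hold there.

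The gene lists were written from general knowledge, and the comparison, lists and tests were chosen with earlier results of these data known. Of the listed names 3 did not match. Some genes belong to several lists, so the list counts are not independent of each other. No set test was run. The rule for named genes took the glycerol, inositol and RAS to ERK lists, the 10 highest and 10 lowest differences among called genes whose libraries did not overlap and whose higher group averaged 10 CPM or more, and up to 4 called members of each list by p. str-267, F56A4.10 and members that complete a count of 5 or fewer, such as hsp-60, sgk-1, xbp-1 and the elo genes, were named after their values were seen. Symbols missing from the table were taken from RefSeq by sequence name. A total of 3951 tested genes overlap another expressed model and 63 share identical counts, so their reads may be split. The labels do not say whether replicates come from separate cultures, and p-values then measure only how far these libraries spread, possibly for technical reasons.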

Additional observations from a re-analysis of the deposited data

How the results depend on the processing

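No gene called in both the main fit and an alternative run changed direction between them. Genes whose call ended in the alternative run, and genes not called in the main fit, were outside that count. The runs share most of their libraries with the main fit, so a change of direction was unlikely from the start. The cell cycle, maternal and early zygotic lists, with few calls in the main fit, did change direction with the preconditioned library used. The alternatives were RLE or upper-quartile factors, no filter or a 5 CPM filter, DESeq2 and unrounded counts. Others were protein-coding genes only, smaller sets of libraries, and leaving out each library. The replicate numbers were not taken to pair the samples. Same-numbered libraries deviated with r = -0.207 between the 2 groups (-0.207 to 0.147 over all pairs of groups). These values cannot exclude pairing, since the preconditioned replicates differed strongly in genes of dividing and young embryos. With the number as a replicate block 4999 genes were called, and with crossed numbers, chosen after seeing the data, 5290. Fitting the 4 compared libraries alone gave 1911 lower calls, 4341 in all. A test against 1.5-fold gave 980 calls, 178 higher and 802 lower, 850 of them at least 2-fold, and gpdh-2 at -0.41 with adjusted p = 1. gpdh-1 passed with DESeq2 (-0.39, adjusted p = 0.04), with the crossed replicate block (-0.40, adjusted p = 0.0268) and in the 6 libraries on 500 mM, also added later (-0.42, adjusted p = 0.022). Leaving out 1 library at a time gave 2541 to 6366 genes called, 996 to 2931 higher, 1545 to 3486 lower, 895 to 1691 at least 2-fold and 8648 to 10179 bounded within 2-fold. Over the same fits gpdh-2 gave -0.51 to -0.35 (adjusted p = 0.00557 to 0.115), gpdh-1 -0.54 to -0.28 (0.0155 to 0.221) and lin-45 -0.29 to -0.13 (0.0221 to 0.236). The cause of these shifts was not tested, beyond the smaller number of libraries. Of the uncalled RAS to ERK genes, 7 turned below 0 in some of these fits, with ranges of -0.092 to 0.18 for sem-5, -0.11 to 0.12 for mpk-1, -0.0042 to 0.065 for ksr-1, -0.049 to 0.025 for ksr-2, -0.04017 to 0.16 for lip-1, -0.047 to 0.22 for eor-1 and -0.21 to 0.27 for egl-17. mpk-1 and ksr-2 also did so in the 6 libraries on 500 mM (-0.0043 and -0.02989), and ksr-2 with upper-quartile factors (-0.0028) and at 5 CPM (-0.016). At this depth 2171 genes were neither called nor bounded within 2-fold.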
